A study of Rattus norvegicus with 20 samples.

Results

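The 10 genes described here encode 6 ligands of the epidermal growth factor (EGF) family, Btc, Egf, Hbegf, Areg, Ereg and Tgfa, and the 4 ErbB receptors, Egfr, Erbb2, Erbb3 and Erbb4. They were taken by symbol from the 32545 genes counted in microdissected cortical collecting ducts of the rat. Btc, which encodes betacellulin, was selected on its measured difference between water-loaded and control rats over the average of days, where it was called lower, and the other members were added for their roles. The water-load values of Btc are therefore a description and carry no test. Of the 10 genes, 8 had enough counts to be tested; Areg and Ereg did not.

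The 20 rats were male Sprague-Dawley animals 5 weeks old, and every rat, control rats included, carried a subcutaneous minipump that released the V2 vasopressin agonist DDAVP at 5 ng per hour. Control rats took 25 mL of water per day in gelled food and water-loaded rats 50 mL per day, a regimen under which the kidney comes to excrete water despite DDAVP, known as vasopressin escape. Ducts were taken after 1, 2 and 4 days, from 3, 4 and 3 control rats and from 3, 4 and 3 water-loaded rats; the day was read from each sample's title, because the protocol text names 4 days alone. Each library came from 1 rat, and the cDNA was amplified by a method designed for single cells. No rats without DDAVP were analysed here.

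EGF-family ligands are made as membrane-anchored precursors, cut free by metalloproteases such as ADAM10 and ADAM17, and bind ErbB receptors on the same or neighbouring cells. Betacellulin binds EGFR and ERBB4, ERBB2 has no known soluble ligand and serves as a dimer partner, and ERBB3 binds neuregulins and signals through its partners because its own kinase is weak. EGF itself is made mainly in the thick ascending limb and distal convoluted tubule, and in the isolated rabbit collecting duct it lowers the water permeability that vasopressin raises.

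Reads on genes numbered 33.5 to 74.9 M per library, and 12665 to 15266 genes were detected. The markers of principal cells, which carry the vasopressin receptor and aquaporin-2, were the most abundant of the cell type lists. Their 11 genes summed to 26712 to 71278 CPM (counts scaled to library size with TMM factors) in controls and 14526 to 30018 CPM in water-loaded rats, although Elf5 was at 0 in 12 libraries. The 8 intercalated cell markers summed to 5888 to 10889 and 8004 to 12057 CPM. Proximal tubule markers, 12 genes, summed to 48.0 to 2556 CPM in controls and 95.4 to 7324 CPM under water load, with the highest value in day 1 water-loaded 2. This library and day 1 control 1 stood apart from the others: 12788 and 12665 genes had a count in them, and their TMM scaling factors were 0.686 and 0.645. Day 1 control 1 also had the highest fibroblast and pericyte marker sum, 1606 CPM, and the highest endothelial marker sum, 891 CPM. The next were 123 CPM in day 2 water-loaded 3 and 738 CPM in day 2 control 4. Its podocyte markers summed to 285 CPM, with 4 of 5 at 0, against at most 33.5 CPM elsewhere. Its immune markers, at 113 CPM, lay within the range of the others. The part of these markers in the values of other genes was not tested. In bulk ducts, fewer cells of a type and less RNA per cell cannot be told apart.

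Promoter sequence of Btc is shown because its transcript is the one that led to this set, and that of Areg because the genes are neighbours with opposite detection in the duct. In the RefSeq order of protein-coding genes on rat chromosome 14, Btc, Areg, Ereg and Epgn follow one another. Each sequence runs from 250 bases before to 50 bases after the RefSeq start in build GRCr8; capitals mark matches to the motifs searched.
Btc, chr14:16992418-16992717, plus strand: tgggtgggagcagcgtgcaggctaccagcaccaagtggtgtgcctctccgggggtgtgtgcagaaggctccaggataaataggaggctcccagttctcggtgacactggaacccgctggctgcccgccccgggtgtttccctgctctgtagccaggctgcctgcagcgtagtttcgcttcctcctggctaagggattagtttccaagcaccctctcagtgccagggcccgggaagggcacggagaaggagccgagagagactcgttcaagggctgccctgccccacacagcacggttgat
Areg, chr14:17265592-17265891, minus strand: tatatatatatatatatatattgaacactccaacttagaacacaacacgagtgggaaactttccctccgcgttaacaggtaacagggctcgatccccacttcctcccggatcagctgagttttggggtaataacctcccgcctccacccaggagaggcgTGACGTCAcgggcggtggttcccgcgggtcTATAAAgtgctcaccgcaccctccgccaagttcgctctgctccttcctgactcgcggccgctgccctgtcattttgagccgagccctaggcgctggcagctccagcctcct
Of the 10 genes, 8 had a RefSeq promoter entry, and Ereg and Erbb3 had none. The motifs below were searched on both strands, namely the cAMP response element TGACGTCA, its half-site TGACG, the AP-1 site TGANTCA, the TATA box TATAAA and the GATA site AGATAA. The Btc window held 0 matches to any of them. The Areg window held 1 full cAMP response element, whose first base lies 91 bases before the start and which contains both half-sites found, and 1 TATA box 61 bases before the start. The Hbegf window held 1 half-site, and the other 5 windows held 0 matches. Among 33465 rat promoters of this length, 1.83% held the full element, 21.2% the half-site, 7.33% the AP-1 site, 14.2% the TATA box and 11.6% the GATA site. A match of letters is a description and not evidence of a bound factor.

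Among the ligands, Btc was by far the most abundant transcript per unit length. Its mean over the 20 libraries was 46.0 FPKM (fragments scaled to gene length and library depth; range 3.45 to 210.4), against 2.49 FPKM for Hbegf, 1.12 for Tgfa, 0.485 for Egf, 0.0137 for Areg and 0 for Ereg. Btc was the top ligand in 19 of 20 libraries; the exception was day 1 water-loaded 2, where Hbegf was higher. Btc made up 80.1% to 99.3% of the summed ligand FPKM in control libraries (median 94.8%) and 40.1% to 92.0% in water-loaded libraries (median 76.8%). These shares use the water-load contrast that chose Btc and are given as a description. Among the receptors, Erbb3 had the highest mean, 5.65 FPKM, followed by Egfr at 2.61, Erbb2 at 0.384 and Erbb4 at 0.207. Erbb3 was the top receptor in 15 libraries, Egfr in 4 and Erbb2 in 1, day 1 control 1. Over all libraries, the ranges of neighbouring genes in both orders overlapped. At least 1 CPM was reached by Btc in 20 libraries, by Hbegf and Erbb3 in 19 each, by Egfr in 16, by Tgfa in 15, by Erbb2 in 11, by Egf in 9, by Erbb4 in 5, and by Areg and Ereg in 0.

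**Figure D1:**
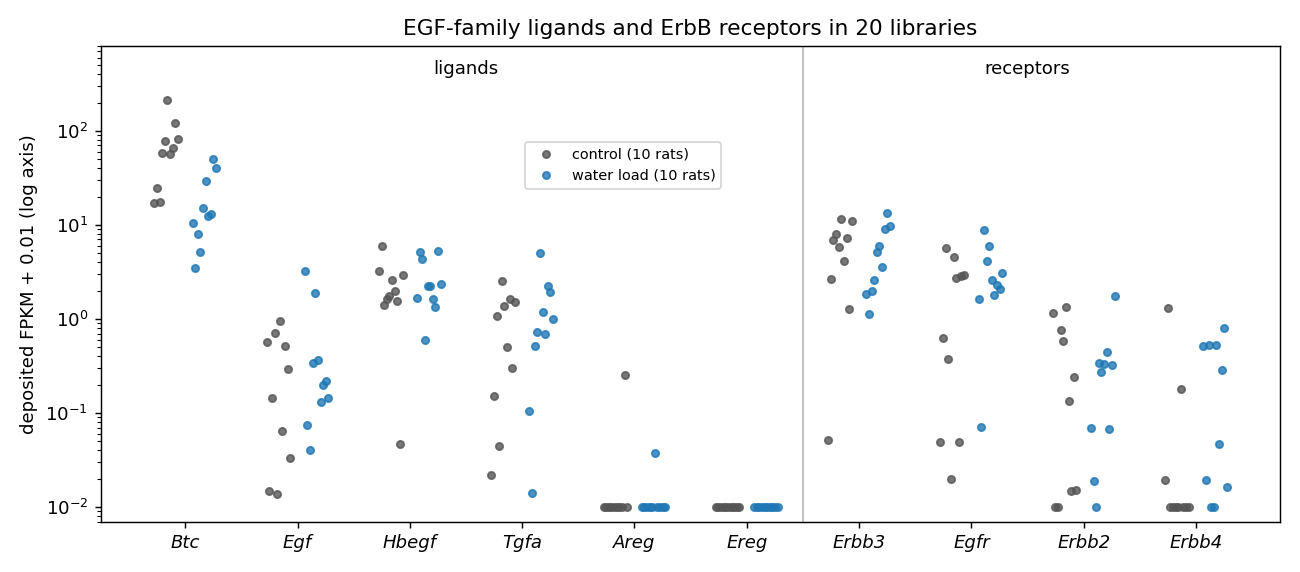
Deposited FPKM plus 0.01 on a log axis for each of the 10 genes, with 1 point per rat, 10 control rats in grey and 10 water-loaded rats in blue. Btc lies highest among the ligands in 19 of 20 libraries, Areg and Ereg lie mostly at the bottom of the axis, and most points of Erbb3 and Egfr lie above those of Erbb2 and Erbb4.

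Btc (ENSRNOG00000002728) was lower in water-loaded than in control rats at each of the 3 days. At day 1, the control rats had 64.8, 64.0 and 42.7 CPM, and the water-loaded rats 23.4, 12.4 and 19.2 CPM. At day 2, the control rats had 140.3, 203, 471 and 138 CPM, and the water-loaded rats 12.4, 36.7, 63.4 and 32.5 CPM. At day 4, the control rats had 168, 333 and 175 CPM, and the water-loaded rats 26.5, 102 and 83.2 CPM. Within each day, the highest water-loaded rat was thus below the lowest control rat, while across days a day 4 water-loaded rat exceeded every day 1 control rat. The highest value of all was that of day 2 control 3, and day 4 control 2 was the highest at its day.

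The group means of Btc were 57.2 ± 12.5 and 18.3 ± 5.57 CPM at day 1 (SD, n = 3 and 3), 238 ± 158 and 36.3 ± 21.0 CPM at day 2 (n = 4 and 4), and 225 ± 93.1 and 70.7 ± 39.5 CPM at day 4 (n = 3 and 3), controls first. The ratios of the control to the water-loaded means were 3.12, 6.56 and 3.18. Fitted log2 differences, water load minus control, were -1.64 (SE 0.59) at day 1, -2.71 (SE 0.53) at day 2 and -1.67 (SE 0.59) at day 4, and -2.01 (SE 0.33) over the average of days, a 4.02-fold lower level. Over that average, edgeR called 23 of 14472 genes, a percentage of 0.159, of which 12 (0.0829%) were lower and 11 (0.076%) higher, and Btc was in this group by the way it was chosen. Groups did not overlap, with water load lower, in 5.17% of tested genes at day 1, in 1.88% at day 2 and in 6.73% at day 4; with water load higher, the shares were 5.71%, 2.35% and 7.93%. At all 3 days this held for 14 genes (0.0967%), Btc among them. Over all 10 rats against 10, groups of 4 genes (0.0276%) did not overlap with water load lower, and those of Btc did overlap. Nothing is read from these shares for Btc.

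The summed principal cell markers moved in the same direction as Btc, with a median of 36800.1 CPM in controls and 19727 CPM in water-loaded rats, and their part in the Btc values was not tested. Most of this sum was Aqp2, the apical water channel, at 28841 ± 11931 CPM in controls and 13367 ± 3746 CPM under water load (n = 10 and 10). Of the 11 markers, edgeR called 2 lower, Aqp2 and Aqp3, and 10 had a difference below 0, with a median log2 difference of -0.28. Npnt (-0.91), Fxyd4 (-0.62), Gata3 (-0.62), Avpr2 (-0.28) and Hsd11b2 (-0.22) were lower but not called. Aqp4 (-0.01), Scnn1b (-0.03) and Scnn1g (-0.09) were close to 0. The 1 marker above 0 was Elf5 (2.70), at 0 in 12 libraries. The intercalated markers had medians of 8761 and 9723 CPM. Between rats of 1 group, Btc varied less than most genes. Its biological coefficient of variation was 0.504, against a median of 0.886, and 19.0% of tested genes had a lower one. Btc was chosen through a call that itself depends on this variation, so nothing is read from this rank. With day 1 control 1 and day 1 water-loaded 2 set aside, the average log2 difference of Btc was -1.89 and Btc was no longer called, as was also so with the number of genes detected per library as a covariate.

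**Figure D2:**
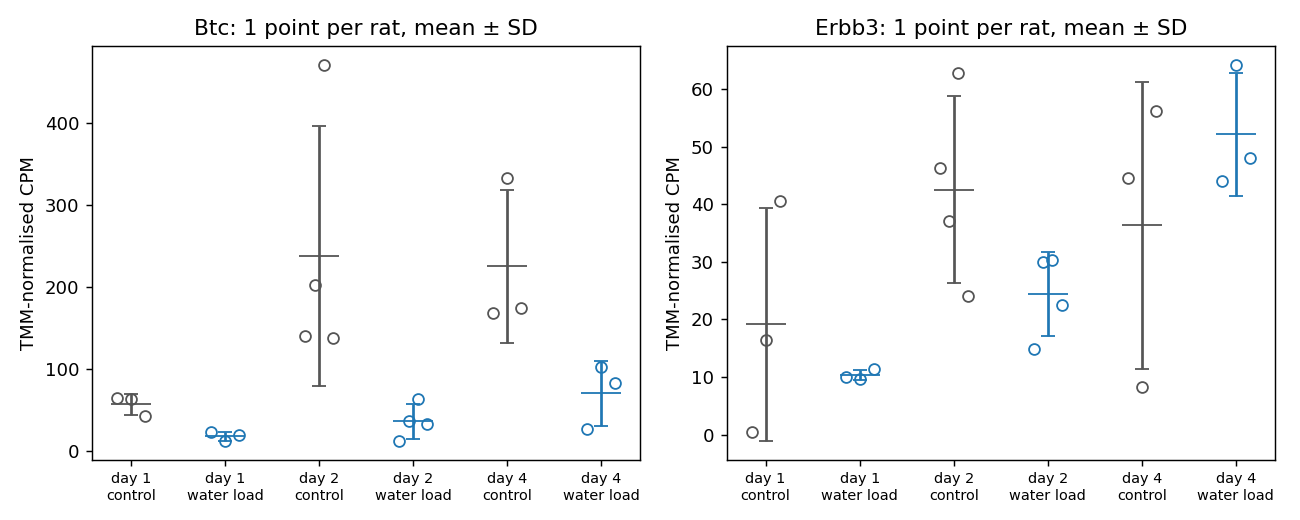
TMM-normalised CPM of Btc and Erbb3, with 1 open circle per rat and bars at the group mean ± SD; control rats are grey and water-loaded rats blue, at days 1, 2 and 4. For Btc the circles of the paired groups do not overlap at any day, and for Erbb3 they overlap at every day.

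The days within a treatment were not used to choose Btc, so its course could be tested. Among control rats, Btc was 2.06 log2 units higher at day 2 than at day 1 and 1.98 higher at day 4 than at day 1. All day 2 and day 4 control rats lay above all day 1 control rats, and the day 2 and day 4 ranges overlapped. Of tested genes, 3.52% lay above day 1 in this way. It is the order that Btc itself showed, so nothing is read from this share. The change over days did not pass the threshold over all genes (edgeR quasi-likelihood F test, adjusted p = 0.0901), where 355 of 14472 genes, 2.45%, did. DESeq2 gave an adjusted p of 0.0279 for Btc, in a comparison where it called 1589 of 14472 genes. Among water-loaded rats the corresponding log2 differences were 0.98 and 1.95, with an adjusted p of 0.256 by edgeR, while 38 genes, 0.263%, passed. The difference of the water-load effect between days was not called for Btc (edgeR adjusted p = 0.870).

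The other ligands gave no call by edgeR in any of the 7 comparisons, and their levels were low. Hbegf, heparin-binding EGF-like growth factor, was 9.79 ± 5.88 and 10.1 ± 6.79 CPM at day 1, 4.47 ± 0.750 and 3.70 ± 1.65 CPM at day 2, and 3.18 ± 2.85 and 5.68 ± 3.87 CPM at day 4, controls first. Its 3 highest libraries, at 17.1, 14.5 and 11.7 CPM, were all from day 1, and its lowest, at 0.0926 CPM, was day 4 control 2. Its control and water-loaded rats overlapped at every day. The average log2 difference was 0.20 (SE 0.61, edgeR adjusted p = 0.991).

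Tgfa, transforming growth factor alpha, ranged from 0.0265 to 21.9 CPM. The day 1 rats had 0.0829, 0.678 and 4.77 CPM as controls and 0.386, 0.0265 and 2.20 CPM under water load. The day 2 controls had 0.156, 12.2, 5.62 and 2.20 CPM and the water-loaded rats 3.19, 21.9, 4.57 and 3.29 CPM. The day 4 controls had 7.70, 1.45 and 5.77 CPM and the water-loaded rats 8.28, 7.08 and 3.73 CPM. The groups overlapped at every day, and the average log2 difference was -0.01 (SE 0.77, edgeR adjusted p = 1).

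Egf was below 1 CPM in 11 of 20 libraries. Its 2 highest values were 10.6 CPM in day 1 water-loaded 1 and 6.61 CPM in day 2 water-loaded 2. The 5 thick ascending limb markers summed to 473 CPM in the first of these, the highest of the water-loaded libraries, and to 340 CPM in the second. These markers summed to 135 to 1096 CPM in controls (median 269) and 119 to 473 CPM under water load (median 166). The sum was above 473 CPM in day 2 control 3 (1096 CPM), day 4 control 1 (641 CPM) and day 2 control 1 (584 CPM). Egf was 3.13, 1.95 and 2.51 CPM in those libraries. The 5 distal convoluted tubule markers summed to 93.4 to 6408 and 202 to 12940 CPM, nearly all of it Calb1, which connecting tubule and collecting duct cells also express, while Pvalb was at 0 in all 20 libraries. The part of these markers in the Egf values was not tested. Egf groups overlapped at every day, and the average log2 difference was 0.43 (SE 1.05, edgeR adjusted p = 0.964).

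Areg, amphiregulin, had 12 counts in all, 10 in day 4 control 2 and 2 in day 2 water-loaded 3. Ereg, epiregulin, had 0 counts in 20 libraries, and so did Epgn, epigen. The floor of 3 counts was worth 0.0414 to 0.0926 CPM, so lower levels were not detectable at this depth. Areg, Ereg and Epgn, which follow Btc on chromosome 14, were therefore at or near the floor in libraries where Btc had 12.4 to 471 CPM. Parm1, the gene before Btc in that order, was not examined.

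The receptors gave no call by edgeR in any of the 7 comparisons as fitted here. With the number of genes detected as a covariate, edgeR called Erbb4 among control days (adjusted p = 0.0197), as 1 of 293 genes of 14472. Only 1 control rat, day 1 control 2, reached 1 CPM of Erbb4, so no change over days is read from this call. Erbb3 had 0.387, 16.4 and 40.6 CPM in the day 1 controls and 9.96, 9.69 and 11.4 CPM in the day 1 water-loaded rats. At day 2 it had 46.3, 37.0, 62.8 and 24.1 CPM in controls and 14.9, 29.9, 30.4 and 22.6 CPM under water load. At day 4 it had 44.5, 8.30 and 56.2 CPM in controls and 44.1, 64.2 and 48.1 CPM under water load. The lowest value, 0.387 CPM, came from day 1 control 1, a library that stood apart. Water-loaded and control rats overlapped at each day. Log2 differences were -0.89 (SE 0.90), -0.80 (SE 0.78) and 0.52 (SE 0.90) at days 1, 2 and 4, and -0.39 (SE 0.50) over the average (edgeR adjusted p = 0.850).

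Within the water-loaded rats, Erbb3 was 1.24 log2 units higher at day 2 and 2.33 higher at day 4 than at day 1. The 3 groups of water-loaded rats did not overlap: the day 1 rats reached at most 11.4 CPM, the day 2 rats lay between 14.9 and 30.4 CPM, and the day 4 rats were at or above 44.1 CPM. Such an order, with no overlap between successive days, held for 0.2% of tested genes. It is the order that Erbb3 itself showed, and other orders were not counted, so nothing is read from this share. The test over all genes did not call this course (edgeR adjusted p = 0.435). In control rats the days overlapped, with an adjusted p of 0.656.

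Egfr, the receptor of EGF, HB-EGF, TGF-alpha and betacellulin, differed widely between rats of 1 group. The day 1 controls had 0.249, 2.69 and 23.4 CPM and the water-loaded rats 6.07, 0.371 and 35.7 CPM. The day 2 controls had 1.48, 0.0427, 17.2 and 11.0 CPM and the water-loaded rats 16.9, 24.1, 9.28 and 7.85 CPM. The day 4 controls had 0.171, 13.0 and 10.3 CPM and the water-loaded rats 7.81, 7.001 and 10.6 CPM. Values under 2 CPM occurred in 4 controls and 1 water-loaded rat. The average log2 difference was 0.59 (SE 0.91, edgeR adjusted p = 0.895), and leaving out day 1 water-loaded 3 turned it to -0.10.

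Erbb2 had 7.35, 0 and 0 CPM in the day 1 controls and 0.221, 0.0529 and 0 CPM in the day 1 water-loaded rats. The day 1 log2 difference of -4.70 (SE 2.47, edgeR adjusted p = 0.367) therefore rested on day 1 control 1, and without that library it was 5.35. At day 2, controls had 0.502 to 5.04 CPM and water-loaded rats 1.06 to 1.93 CPM, and at day 4 they had 0.0184 to 1.05 and 0.197 to 6.01 CPM. Over the average the log2 difference was -0.99 (SE 1.18, adjusted p = 0.831), and 2.36 without day 1 control 1.

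Erbb4, the receptor that betacellulin binds besides EGFR, was at 0 counts in 9 libraries. All 3 day 4 controls were at 0, and the day 4 water-loaded rats had 0.860, 2.42 and 0.0206 CPM. Against a floor of 3 counts in each control library, the day 4 mean of 1.10 CPM was at least 15.6-fold higher under water load. Without the highest rat, day 4 water-loaded 2, that mean was 0.440 CPM and the bound 6.23-fold. The lowest of the 3 rats, day 4 water-loaded 3, had 1 count, under the floor, so the groups are not separated at this depth. The difference was not called (edgeR adjusted p = 0.674). The highest Erbb4 value of all, 5.17 CPM, was in day 1 control 2. At days 1 and 2 the groups overlapped, and over the average the adjusted p was 0.411.

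**Figure D3:**
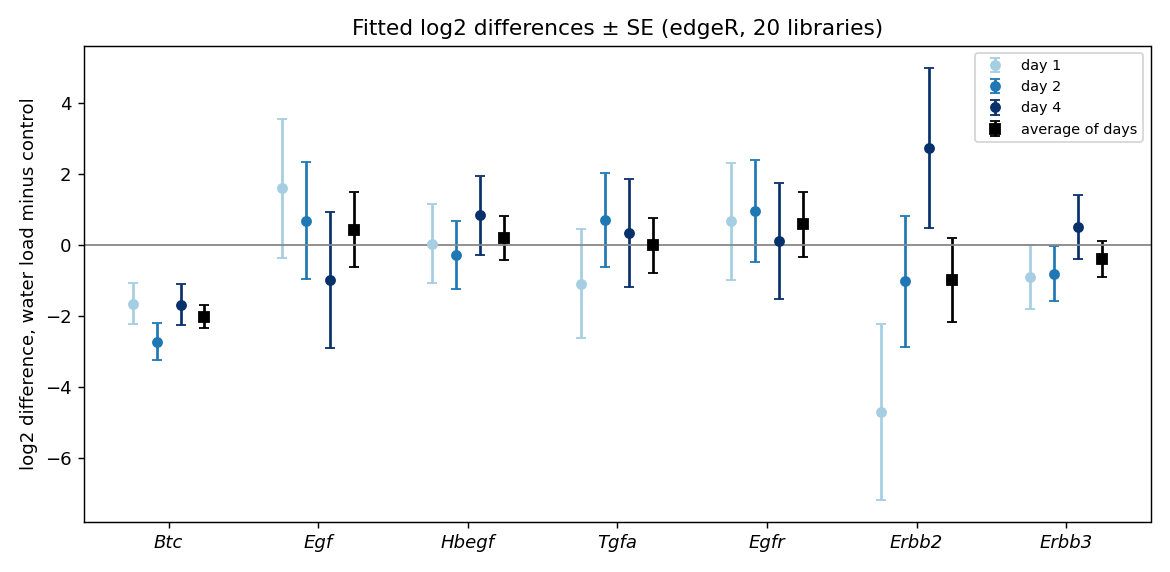
Fitted log2 differences, water load minus control, with bars of 1 SE, for 7 of the genes at days 1, 2 and 4 (circles) and over the average of days (squares). Btc lies below 0 at every day, and no other gene lies to the same side of 0 by more than 2 SE at any day; Areg, Ereg and Erbb4 are not drawn because of groups at 0.

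No gene of all 14472 was called by edgeR at a single day. At an unadjusted p under 0.05 there were 2254 genes at day 1 (15.6%), 757 at day 2 (5.23%) and 1045 at day 4 (7.22%). DESeq2 called 1126, 77 and 319 genes and limma-voom 2, 20 and 0. The difference of the effect between days gave 0 calls in edgeR, 1239 genes (8.56%) at an unadjusted p under 0.05, 193 calls in DESeq2 and 1 in limma-voom.

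Genes of the wider ErbB pathway were counted in 6 lists. Of 75 listed genes, 72 were matched to 1 row and 67 were tested, and 0 were called for the average water-load difference by edgeR, against 0.159% of all genes; 10 lay at an unadjusted p under 0.05, where 13.5% of all genes did. The median log2 difference over all genes tested was 0.01. These lists were chosen with earlier results of these data known.

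Of 5 other ErbB ligands, Nrg1, a neuregulin that ERBB3 binds, was the only one tested. It had a mean of 2.62 CPM and an average log2 difference of 0.26 (edgeR adjusted p = 1). Of 8 tested genes of ligand shedding, 4 were lower and 4 higher, with a median log2 difference of -0.05. The most abundant was Timp3, an inhibitor of metalloproteases, at 133 ± 84.1 CPM in controls and 68.7 ± 30.8 CPM under water load (log2 -0.94, edgeR adjusted p = 0.264). Rhbdf1, which carries ADAM17 through the secretory path, had 99.4 ± 41.2 and 93.7 ± 58.0 CPM (n = 10 and 10).

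Of the 16 tested adaptors and members of the Ras and MAPK cascade, 8 were lower and the median was -0.01. Map2k2, the kinase MEK2, had 356 ± 266 and 327 ± 243 CPM, and Mapk3, the kinase ERK1, 183 ± 102 and 154 ± 19.9 CPM. Of the 14 genes of the PI3K, PLC and STAT arm, 9 were lower, with a median of -0.04. Stat3 had 184 ± 43.4 and 180 ± 52.1 CPM and the kinase Akt1 163 ± 50.0 and 187 ± 70.0 CPM. All these pairs are controls and water-loaded rats, n = 10 each, with SDs that also span the days.

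Of the 17 feedback inhibitors of the pathway, 9 were lower and the median was -0.11. At days 1, 2 and 4 the medians were -0.43, -0.47 and -0.11; with genes at 0 in a group set at their bound, they were -0.12, -0.33 and -0.11. Spry1, a Sprouty protein that restrains Ras signalling, had 127 ± 64.5 CPM in controls and 77.5 ± 54.1 CPM under water load (adjusted p = 0.512). Dusp6, a phosphatase of ERK, had 82.0 ± 82.0 and 37.4 ± 34.1 CPM (adjusted p = 0.479).

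Of the 11 early EGF target transcripts, 10 were lower under water load, with a median log2 difference of -0.77, where 49.0% of all genes were lower and the all-gene median was 0.01. None of the 11 was called by edgeR with all libraries, while 3 had an unadjusted p under 0.05. The counts were 11 lower at day 1 (median -1.36), 8 at day 2 (-0.65) and 9 at day 4 (-0.55). Of all genes, 48.9%, 53.2% and 49.8% were lower at those days. Genes of 1 list can move together, so these counts carry no test. These genes respond to many stimuli besides EGF. Fos, an AP-1 subunit, was the most abundant at 1785 ± 1571 CPM in controls and 1232 ± 884 CPM under water load (log2 -0.51, edgeR adjusted p = 0.578), followed by Atf3, a stress-induced transcription factor, at 1569 ± 2843 and 547 ± 761 CPM (log2 -1.02, adjusted p = 0.399). The 1 transcript with a fitted difference above 0 was Fosl1, another AP-1 subunit, at 0 in 13 libraries, whose mean was nevertheless higher in controls, 2.12 CPM against 0.296 CPM.

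Leaving out 1 library at a time, 9 to 10 of the early targets were lower, with medians from -0.97 to -0.27; the value nearest 0 came without day 1 control 1. Without day 1 control 3, or without day 4 water-loaded 3, edgeR called 1 of the 11. Over all genes, those fits called 37 of 15147 and 24 of 15121. With both libraries that stood apart set aside, 10 were lower, with a median of -0.54. At day 1, 7 were lower without day 1 control 1. The smallest adjusted p in this list belonged to Phlda1 (0.0737) and the next to Ier3 (0.126), both chosen for mention after their values were seen. Phlda1 had 126 ± 104 and 49.2 ± 5.24 CPM at day 1, 48.9 ± 31.5 and 10.6 ± 4.32 CPM at day 2, and 72.0 ± 13.5 and 34.5 ± 24.0 CPM at day 4. Its groups did not overlap at day 2, where the controls lay between 22.6 and 94.6 CPM and the water-loaded rats between 6.19 and 14.7 CPM; the day 2 background of such genes is 1.88%.

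**Figure D4:**
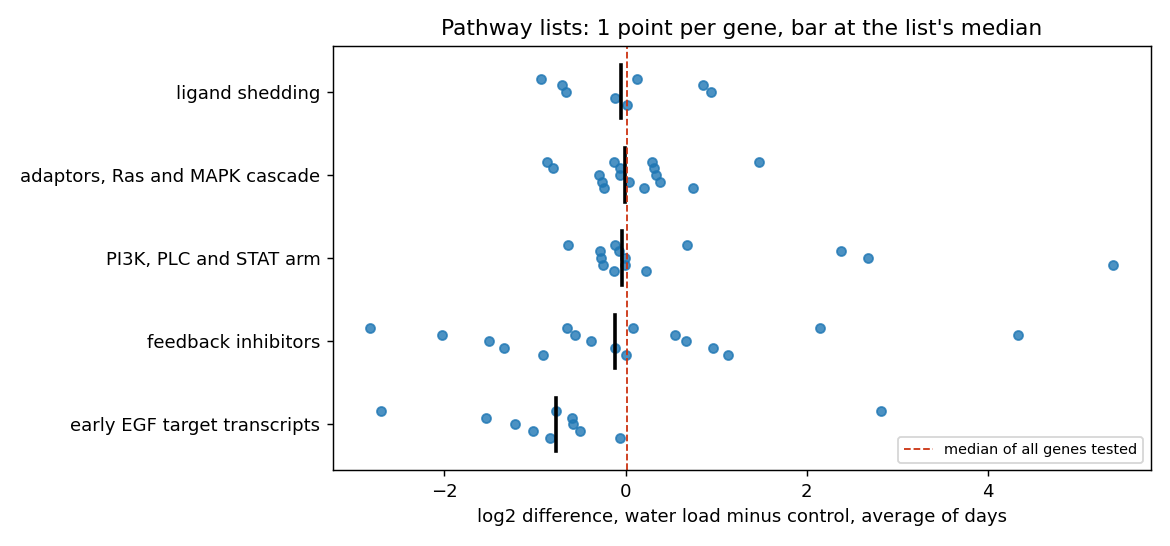
Fitted log2 differences over the average of days, 1 point per gene, for 5 pathway lists, with a bar at each list's median and a dashed line at the median of all genes tested (0.01). The early EGF target transcripts have 10 of 11 points below 0. Genes with a group at 0 have fitted values that depend on the prior count, wherever they lie on the axis.

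Over the days of control rats, edgeR called 4 of the 67 pathway genes, against 2.45% of all genes. Atf3 had 4552 ± 4136 CPM at day 1, 344 ± 334 at day 2 and 217 ± 112 at day 4 (adjusted p = 0.0212). Map2k1, the kinase MEK1, rose from 38.5 ± 23.7 to 124 ± 53.3 and 204 ± 36.6 CPM (adjusted p = 0.0231). Hras had 121 ± 87.0, 29.8 ± 5.56 and 33.4 ± 6.95 CPM (adjusted p = 0.0417). Pik3r2, a regulatory subunit of PI3K, had 130.1 ± 43.6, 42.6 ± 8.95 and 119 ± 35.3 CPM (adjusted p = 0.0316). Without day 1 control 1, the calls over all genes in this comparison went from 355 to 43. Over the days of water-loaded rats, edgeR called 0 of the 67, where 0.263% of all genes were called, 12.1% of all genes had an unadjusted p under 0.05, and DESeq2 called 520 genes.

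Likeness to Btc was ranked among 7385 tested genes with a mean of at least 10 CPM. Genes whose symbol is a locus name, such as LOC or RGD, or a bare number were left out. By Pearson's r of log2 CPM over the 20 libraries, Btc's pattern was closest to that of 5 of the genes ranked. These were F3, tissue factor, with an r of 0.878 and a Spearman rho of 0.874; Bcl10, a signalling adaptor of immune receptors, with 0.862 and 0.875; and Brcc3, a deubiquitinase, with 0.840 and 0.802. Vasn, vasorin, had 0.818 and 0.832, and Aqp3, the basolateral water channel of principal cells, 0.805 and 0.809. The points share the treatment and the day, and the r of deviations from the group means was 0.715 for F3, 0.725 for Bcl10, 0.707 for Brcc3, 0.565 for Vasn and 0.365 for Aqp3. F3 had 28.3 ± 13.9 CPM in controls and 10.6 ± 4.78 CPM under water load, and Aqp3 3400 ± 1833 and 1052 ± 380 CPM (n = 10 and 10). Because likeness to Btc includes its water-load difference, these genes' own water-load differences are not given as results of their own.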

How the data were processed

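Whole-number counts of reads per gene and FPKM values were deposited by the authors for 20 libraries. The submitters' processing notes list Trimmomatic 0.32, STAR 2.4.0.1, SAMtools, HTSeq and the genome build rn6; annotation and strand use were not found there. Summary lines without a gene, 31.5% to 35.6% of counts, were set aside. The test was that of edgeR 4.0.16 under R 4.3.3 (filterByExpr, TMM, robust quasi-likelihood fit of 6 group means over 20 libraries), with Benjamini-Hochberg adjustment over 14472 genes and a threshold of 0.05. The tests were checked on simulated data. Levels within a gene are TMM-normalised CPM, and levels between genes are deposited FPKM. The floor was 3 counts and covers counting error only, because amplified reads are not independent molecules. Alternatives used DESeq2 1.42.0 and limma 3.58.1.

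The genes and lists were chosen with earlier results of these data known. Named genes are the 10 members, each list's 2 most abundant genes and called genes, and the 5 genes most like Btc. Phlda1, Ier3, Fosl1 and the principal cell and thick ascending limb markers were named after their values were seen. The fibroblast, endothelial, podocyte and immune marker sums of day 1 control 1 were also given after they were seen. Sequences are from RefSeq, build GRCr8. Same-numbered control and water-loaded libraries were compared as deviations from group means. They correlated at 0.148, 0.147, 0.154 and 0.236 at day 2, and below 0.1 at days 1 and 4. At day 2, control 3 correlated best with water-loaded 4. The titles number the rats but name no pairs, and the main fit did not use the numbers. The block fit, an alternative, joined same-numbered rats at all 3 days.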

Additional observations from a re-analysis of the deposited data

Results flagged for a closer look

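In 5 of 17 groups of 4 rats with values for these genes, the highest rat lay farther from the next than Dixon's criterion allows. Chance gives such a gap in about 1 in 20 groups of normally distributed values. The CPM used here were not tested for that shape, so no excess is read from the 5 groups. The rate does not apply at all to Areg and to Erbb4 in controls. There the other 3 rats were at 0 and any count would meet the criterion. Egf was 6.61 CPM in day 2 water-loaded 2 and at most 1.18 CPM in the others of that group. Tgfa was 21.9 CPM in the same library, with 4.57 CPM in the next. Erbb4 was 0.632 CPM in day 2 control 4 and 0 in the other day 2 controls, and 1.70 CPM in day 2 water-loaded 3, with 0.149 CPM in the next. Areg was 0.0276 CPM in day 2 water-loaded 3, which is 2 counts and under the floor, and 0 in the others.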

How the results depend on the processing

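Of 1664 recomputed values of the members, 1599 kept their direction and side of the threshold, 2 lost a call, 3 gained one and 60 turned direction, 33 of these by leaving out 1 library. The average Btc difference ranged from -2.18 to -1.82 over 30 alternatives. Leaving out 1 library gave values from -2.15 to -1.82. This contrast chose Btc, so these values are a description. The 2 lost calls were those of Btc in it: 0 members were called with each library's detected gene number as covariate and, as an alternative chosen after seeing the data, with both day 1 libraries that stood apart set aside. DESeq2 called 1 member at day 2 and 1 among control days, Btc in both, where it called 77 and 1589 genes in all. The day 2 difference is part of the contrast that chose Btc, so its call there is a description. The covariate in edgeR called 1 among control days, Erbb4 (adjusted p 0.0197), which reached 1 CPM in 1 control rat. With the replicate block, which joins same-numbered rats of each day, the average Btc difference was -2.07, and calls over all genes went from 23 to 5; no member's call changed.

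Over the average, Tgfa turned to 0.0113 (DESeq2 size factors), 0.0107 (DESeq2), 0.22 (limma-voom), 0.0033 (filter of 5 CPM), 0.20 and 0.41 (log2 FPKM with a pseudocount of 1 and 0.1), 0.24 (covariate) and 0.22 (block). Erbb2 turned to 0.74 (voom), 0.0439 (FPKM + 0.1), 0.48 (block) and 2.48 (both libraries set aside). Erbb3 turned to 0.10 (voom), 0.0166 and 0.23 (FPKM + 1 and + 0.1) and 0.0705 (block). At day 1, Erbb3 turned to 0.36, 0.29 and 0.16 (voom, FPKM + 0.1, block), Erbb4 to 2.13, 0.00125, 0.48 and 4.34 (voom, FPKM + 1, FPKM + 0.1, block), and, with both libraries set aside, Hbegf to -0.43 and Erbb2 to 5.67. At day 4 the covariate turned Egf to 1.14 and Egfr to -1.46. The median of all genes over the average moved from 0.01 to 0.17 with voom and 0.22 with FPKM + 0.1. The causes were not tested.

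Leaving out 1 library gave ranges over the average of -0.90 to 1.18 for Egf, -0.10 to 1.44 for Egfr, -1.62 to 2.36 for Erbb2, -0.58 to 0.00756 for Erbb3, -0.0200 to 0.45 for Hbegf and -0.68 to 0.75 for Tgfa. At day 1 the ranges were -2.41 to 3.84 for Egf, -1.43 to 3.25 for Egfr, -6.43 to 5.35 for Erbb2, -1.46 to 0.30 for Erbb3, -1.07 to 5.45 for Erbb4, -0.56 to 0.45 for Hbegf and -3.12 to 1.18 for Tgfa. At day 2 they were -0.65 to 1.37 for Egf, -1.67 to 7.62 for Erbb4, -0.46 to 0.00592 for Hbegf and -0.45 to 1.63 for Tgfa, and at day 4 -0.46 to 0.70 for Egfr and -0.0824 to 0.82 for Tgfa.

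Genes called over the average numbered 708 with DESeq2, 63 with limma-voom, 35 with the stricter filter, 13 with FPKM + 0.1 and 4 with the covariate, and 6 to 37 without 1 library. FPKM + 1 and FPKM + 0.1 called 2 and 1 genes (day 1), 0 and 2 (day 2) and 2 and 3 (day 4); FPKM + 0.1 gave 1 for the difference between days. Without 1 library, day 1 gave 0 to 9 calls and the difference between days 0 to 3. Among control days calls were 1589 with DESeq2, 562 with the stricter filter, 185 with both libraries set aside and 43 to 563 without 1 library. Among water-loaded days they were 520, 67 and 11 in the same order, 101 with voom, 124 and 127 with FPKM, 0 with the covariate and 5 to 79 without 1 library.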
